A study of Mus musculus with 2 samples.

Results

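Transcription factors that direct CD4 T cells into helper lineages, together with the Runx factors and their partner Cbfb, were examined in regulatory T cells (Treg), CD4 T cells that hold immune responses in check under control of the factor Foxp3. The set was 10 genes chosen by name: Tbx21, Eomes, Gata3, Bcl6, Prdm1, Id3, Runx1, Runx2, Runx3 and Cbfb. Every probe set that the platform annotation pairs with exactly 1 of these symbols was taken, which gave 17 probe sets of 45101 on the array and 9 genes of 18194 named there. Runx2 was paired with no probe set and was not analysed here.

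Spleen and lymph nodes of female mice, 6 to 8 weeks old, were the source, and the cells were isolated by FACS. There were 2 groups with 1 Affymetrix array each, Foxp3 Cre/wtS Stat3 fl/wt and Foxp3 Cre/wtS Stat3 fl/fl, so that both carried Cre at a Foxp3 allele and at least 1 loxP-flanked (floxed) allele of Stat3, a transcription factor activated by IL-6, IL-10, IL-21 and related cytokines. Cre was driven by the X-linked Foxp3 locus, so in these heterozygous females random X inactivation leaves some Treg without active Cre. The labels state neither a selection of Cre-positive cells nor the number of mice per sample. The comparison asks which transcripts of Treg depend on Stat3.

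Values are log2 signals made by GCRMA, which corrects each probe for a background predicted from its bases and then brings the arrays to a common distribution. Values under log2 5 lie in the dense low end of the array and were treated as having no order. A probe set was called measured where it reached log2 5 in at least 1 array. With 1 array per genotype no difference has a replicate error and no p-value is given. All differences are fl/fl minus fl/wt on the log2 scale, and their directions rest on the labels.

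The arrays were close to each other, and markers of Treg and of other cells were measured in both. Of the 4 Stat3 probe sets, 3 were measured, and they differed by -0.083 to -0.0083. Their position against the floxed part of the gene is not known here, so they do not check the labels. Of 9 Treg markers 8 were measured, with the inhibitory receptor Ctla4 at 14.91 (fl/wt) and 14.87 (fl/fl) and the Helios gene Ikzf2 at 13.88 and 13.86. By the brightest probe set of each marker, the largest differences were -0.10 for Il2ra, whose second probe set gave -0.014, and 0.088 for Cd3e. The second probe set of Cd4 gave -0.21 and its brightest -0.061. Foxp3 itself stayed below log2 5, at 4.09 and 3.52, so the defining factor of the labelled cell type gave no signal above the dim range. In a sorted population measured in bulk, fewer cells of a type and less RNA per cell cannot be told apart.

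T-bet (Tbx21) directs Th1 cells, GATA3 directs Th2 cells and Bcl6 directs follicular helper cells, and Treg that take up one of these factors gain homing and suppressive properties of the matching helper lineage. Bcl6 and Blimp-1 (Prdm1) repress each other. Runx proteins bind DNA as heterodimers with Cbfb, and in mouse Treg the Runx1 and Cbfb complex interacts with Foxp3 and helps to keep the Foxp3 gene on.

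Most of these factors were well above background and nearly equal in both genotypes. Of the 17 probe sets 11 were measured, covering 9 genes, and 6 stood between 1.94 and 4.59 in both arrays. Each gene below is represented by its brightest probe set unless its other probe sets are named. None of the 9 genes differed by 1.5-fold in either direction, a size that only 0.645% of the 9774 measured genes on the array passed. A difference of 0.1 or more was seen for 1 of the 9, Runx3, and for 26.8% of all measured genes. Of the 9 genes 6 lie at log2 10 and over, where the median size of the difference was 0.037. With so few genes, most of them bright, neither count marks the set as steadier than other genes. In fl/fl 6 of the 9 were lower and 3 higher, while 52.5% of all measured genes were lower. The median difference was -0.032 for these genes and -0.0045 for all measured genes, and the median size of the difference was 0.063 and 0.053.

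**Figure D1:**
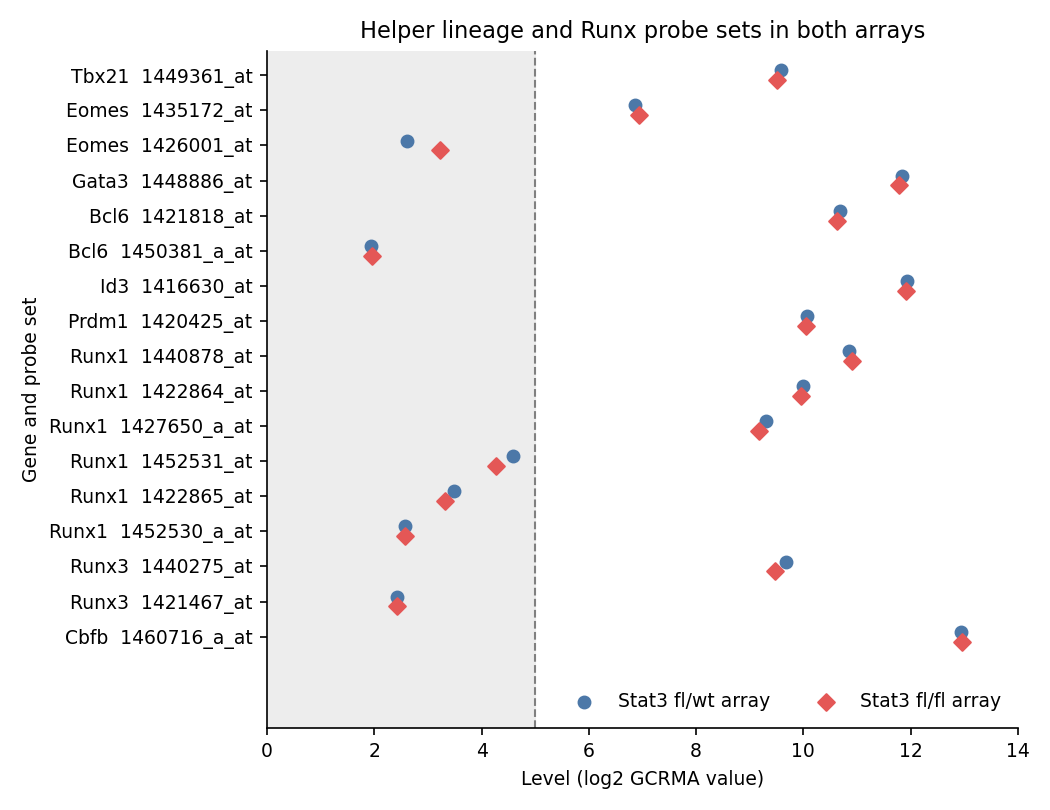
Level of each of the 17 probe sets (log2 GCRMA value, horizontal axis) in the fl/wt array (circles) and the fl/fl array (diamonds), 1 array each, with the range under log2 5 shaded. The symbols of the 11 measured probe sets nearly coincide, and the widest measured gap, -0.20, is that of Runx3.

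By signal the order of the genes in fl/wt was Cbfb, Id3, Gata3, Runx1, Bcl6, Prdm1, Runx3, Tbx21 and Eomes. The order in fl/fl was the same except that Runx3 and Tbx21 changed places. Signals of different probe sets also reflect probe affinity, so this is an order of array signals and not of transcript amounts, and without replicates the order of neighbours cannot be tested. Cbfb was brighter than 96.3% of all probe sets on the array and Eomes than 63.5%.

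The Th1 factors gave a mid-range and a dim signal. Tbx21, which activates the Th1 programme and in Treg the chemokine receptor gene Cxcr3, read 9.58 (fl/wt) and 9.51 (fl/fl), which differ by -0.063. It has a single probe set here. The fl/fl signal was thus 95.7% of the fl/wt signal. Of the 3556 genes with a mean level from log2 7 to 10, 41.3% had a smaller difference, so the Tbx21 value is near the middle for its level.

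Eomes, the T-box factor of CD8 T and NK cells, read 6.87 (fl/wt) and 6.95 (fl/fl), which differ by 0.076. The fl/fl array was slightly higher, and 33.8% of the 982 genes from log2 5 to 7 differed by less. Its second probe set was under log2 5 in both arrays, at 2.60 and 3.22, and gives no direction. Dim genes scatter widely on these arrays: 4.68% of genes from log2 5 to 7 passed 1.5-fold, against 0.422% from log2 7 to 10 and 0.0193% of the 5182 genes at log2 10 and over.

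**Figure D2:**
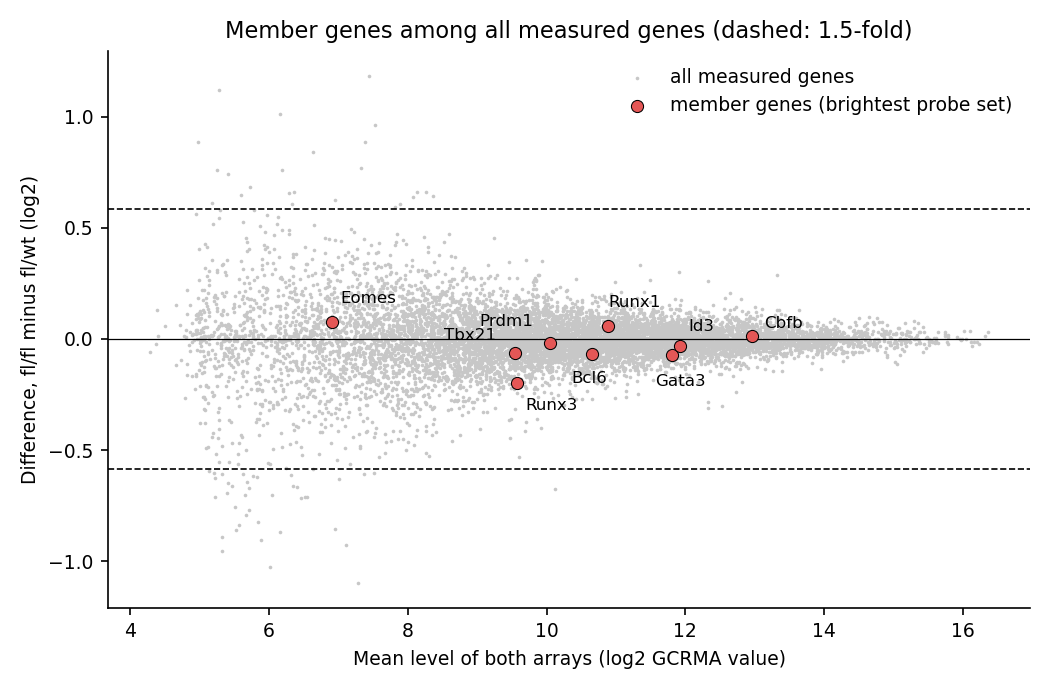
Difference between the arrays (fl/fl minus fl/wt, log2) against the mean level of both arrays (log2 GCRMA value) for the 9774 measured genes (grey) and the 9 member genes (red, brightest probe set), with dashed lines at 1.5-fold. All 9 lie between the lines, from -0.20 (Runx3) to 0.076 (Eomes), and the grey cloud narrows as the level rises.

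Gata3, the Th2 factor that in Treg also keeps cells stable at inflamed tissue sites, was among the brightest of the set. It read 11.85 (fl/wt) and 11.78 (fl/fl), which differ by -0.071. At this level the arrays differ little, and 77.4% of the genes at log2 10 and over had a smaller difference. Gata3 has a single probe set here, so no other probe set bears on this value.

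Bcl6, the repressor that directs follicular helper and follicular regulatory T cells, read 10.69 (fl/wt) and 10.63 (fl/fl), which differ by -0.067. The fl/fl signal was 95.5% of the fl/wt signal, and 75.2% of genes at log2 10 and over differed by less. A further Bcl6 probe set, of the type whose probes can match several transcripts, was at 1.94 and 1.96, under the level that was treated as ordered.

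Bcl6 is known to be activated through Stat3 in T cells receiving IL-6 or IL-21, and its promoter windows were searched for the letters of a Stat site. RefSeq gives windows from 250 bases before to 50 after each annotated start on GRCm38.p6, and all 10 genes matched, with 13 windows. The motif TTCNNNGAA reads the same on both strands, is shared by several Stat proteins and overlaps the sites that Bcl6 itself binds. It was found in 8.30% of all 32851 windows, and 11 windows held 3 or more matches. Among the 13 windows only the 2 of Bcl6 held it, with 1 match in the upstream window and 3 in the downstream one. The stretches are shown because Stat3 is the gene the study altered, with the matches in capitals. The first spans chr16:23988943-23988992 (minus strand), positions -140 to -91 from the upstream start. The second spans chr16:23981344-23981463 (minus strand), positions -180 to -61 from the downstream start.
Bcl6 upstream start: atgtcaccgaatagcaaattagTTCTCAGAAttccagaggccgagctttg
Bcl6 downstream start: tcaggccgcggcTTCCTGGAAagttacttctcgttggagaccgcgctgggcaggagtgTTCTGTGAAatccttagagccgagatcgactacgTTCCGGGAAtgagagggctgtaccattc
A match is a description of the letters and not a binding site. The windows of the other 9 genes did not hold these letters, which says nothing of Stat3 elsewhere in those genes.

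Prdm1 encodes Blimp-1, which represses Bcl6 and marks effector Treg that make IL-10. It read 10.06 (fl/wt) and 10.04 (fl/fl), which differ by -0.017. Of the genes at log2 10 and over, 25.0% differed by less. The gap between the Bcl6 and Prdm1 signals was 0.63 in fl/wt and 0.58 in fl/fl, so these opposing factors kept nearly the same signal ratio in both arrays.

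Id3 binds E proteins and keeps them from DNA, and in Treg it holds back follicular differentiation. It was the second brightest of the set, at 11.94 in fl/wt and 11.91 in fl/fl. The difference was -0.032, and 44.4% of genes at log2 10 and over differed by less.

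Runx1 was read by 6 probe sets, 3 of them measured, which did not share a direction. The brightest, 1440878_at, read 10.86 (fl/wt) and 10.92 (fl/fl), which differ by 0.060. The next, 1422864_at, read 9.99 and 9.96, a difference of -0.033. The third, 1427650_a_at, whose probes can match several transcripts, read 9.30 and 9.18, a difference of -0.12. One was thus higher and the others lower in fl/fl, and the direction for the gene depends on the probe set. Their differences spanned 0.18. For the 1052 genes with 3 measured probe sets, dim and bright together, the median span was 0.16. The Runx1 span was near that value, but the comparison is not matched for level. The remaining 3 Runx1 probe sets were under log2 5 in both arrays, at 4.59 and 4.26, at 3.49 and 3.32, and at 2.57 and 2.58, and give no direction.

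Runx3, which directs the CD8 lineage and works with T-bet in Th1 cells, had the largest difference of the set. Its measured probe set read 9.67 (fl/wt) and 9.47 (fl/fl), which differ by -0.20, so the fl/fl signal was 87.3% of the fl/wt signal. Of the genes from log2 7 to 10, 86.2% had a smaller difference, and 40.8% of them differed by 0.1 or more. The second Runx3 probe set was at 2.42 and 2.43 and does not read the difference. The pooled SD of the difference between probe sets of 1 gene was 0.14 over the 4311 genes with several measured probe sets. This SD is a spread within the same 2 arrays over all levels, not between samples, so it does not show whether Runx3 differs between the genotypes.

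Cbfb, the shared partner that stabilises Runx proteins on DNA, was the brightest of the set, at 12.95 in fl/wt and 12.96 in fl/fl. The difference of 0.011 was the smallest of the set and turned to -0.020 when each array was centred on its median over all probe sets. Its single probe set is of the type whose probes can match several transcripts.

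The most upstream windows of the Runx genes share a sequence that the other members' windows lack. The Runx core motif TGTGGT, searched on both strands, was found in 16.8% of all windows. Among the members' 13 windows it was in 3, the most upstream window of each of Runx1, Runx2 and Runx3. In each of these a pair of matches on the opposite strand lies within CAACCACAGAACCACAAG, the longest run of letters that the 3 windows share (18 bases). That run was found in 4 of the 32851 windows, of which 3 were these, and the other was that of Gm16225, which overlaps the Runx3 window on the opposite strand. This run was chosen after the sequences were seen. It is shown with 6 bases on each side and the core matches in capitals. The stretches are chr16:92826025-92826054 (minus strand) for Runx1, chr17:44814583-44814612 (minus strand) for Runx2 and chr4:135120503-135120532 (plus strand) for Runx3.
Runx1: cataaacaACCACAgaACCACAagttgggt
Runx2: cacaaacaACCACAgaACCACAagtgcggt
Runx3: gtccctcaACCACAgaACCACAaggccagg
In the run, the first core match began at position 29 from the start in Runx1, 24 in Runx2 and -134 in Runx3.

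**Figure D3:**
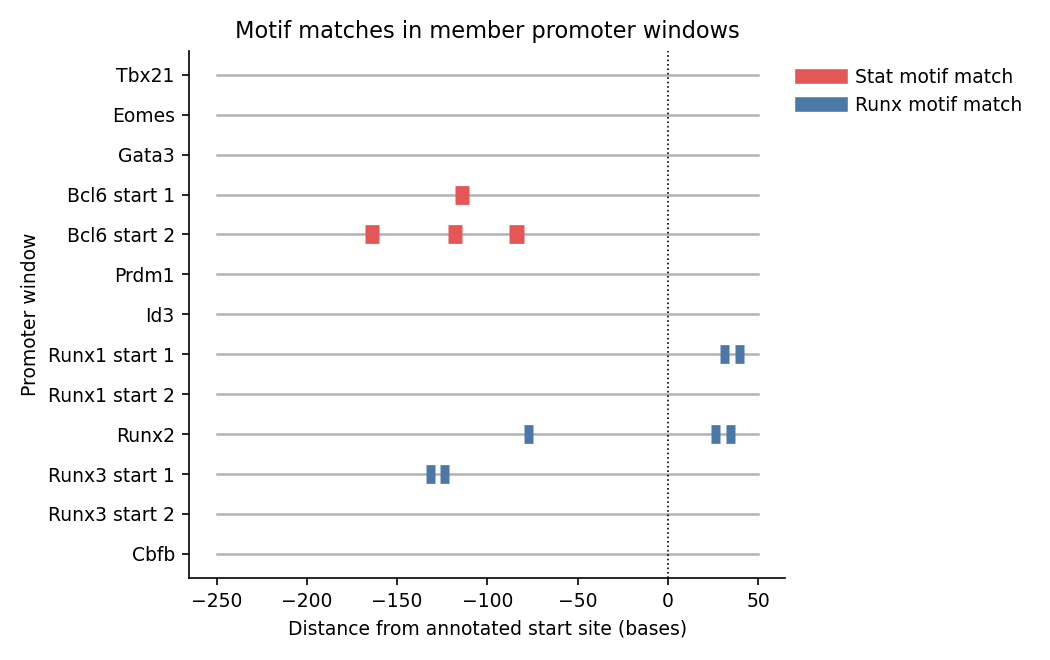
Matches of the Stat motif (red) and the Runx core motif (blue) in the 13 RefSeq promoter windows of the 10 genes, by distance from the annotated start in bases, with the start dotted. Stat matches appear only in the 2 Bcl6 windows and Runx matches only in the upstream windows of the 3 Runx genes.

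Genes that work with these factors were followed through lists of each lineage, counted by the brightest probe set. The lists group genes by topic and not by the direction in which a factor acts on them. Their counts of higher and lower genes and their medians therefore do not read the activity of a factor. A difference of 0.1 or more, seen in 26.8% of all measured genes, was found for 0 Th2, 1 effector Treg, 2 Th1, 3 E protein, 4 follicular and 5 Runx list genes. Of the Th1 genes 10 of 14 were measured, with 2 higher and 8 lower in fl/fl and a median of -0.030. None passed 1.5-fold. The interferon gamma receptor chain Ifngr2 (-0.13) and the IL-12 receptor chain Il12rb1 (-0.11) were lower, while Ifngr1 (0.070) was higher and Il18rap was at -0.050. Cxcr3, which T-bet activates, differed by -0.014 at a level of 12.41 in fl/wt.

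Th2 genes spanned the narrowest range, from -0.043 to 0.041, with 4 higher and 5 lower among 9 measured of 15 and a median of -0.012. Stat6, which carries the IL-4 signal to Gata3, differed by -0.043, while its second probe set gave 0.0064. Maf, which drives Il4 and Il10, differed by -0.042, with its 4 other probe sets from -0.017 to 0.14. The chemokine receptor Ccr8 (0.041) and the transcription factor Nfil3 (0.035) were higher. Il5 and Il13 were under log2 5 in both arrays.

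Follicular genes had 8 higher and 4 lower among 12 measured of 16, with a median of 0.030. The coactivator Pou2af1, shared with B cells, differed by 0.18, and the follicle homing receptor Cxcr5 by -0.14. Tox differed by -0.13, with its other measured probe sets also lower, at -0.32 and -0.12. Bcor, the corepressor that Bcl6 recruits, differed by -0.10, but its other probe sets ran from -0.23 to 0.11.

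Effector Treg genes had 5 higher and 9 lower among 14 measured of 18, with a median of -0.012. Granzyme B (Gzmb), at -0.68 from 1 measured probe set, was the only gene of these 6 lists past 1.5-fold. Of all measured genes, 0.399% passed this size on the lower side. Among genes with a mean level at log2 10 and over, as for Gzmb, 1 of 5182 (0.0193%) passed it in either direction, and that gene was Gzmb. Gzmb read 10.46 (fl/wt) and 9.78 (fl/fl), at the lower edge of this band. In the band from log2 7 to 10, 0.422% passed. The lists were chosen with earlier results of these data known, so these shares do not test Gzmb. The other 13 effector Treg genes ran from -0.069 to 0.055. Il10, a gene that needs Blimp-1 in effector Treg, differed by -0.0074.

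Runx partners and targets had 8 higher and 8 lower among 16 measured of 21, with a median of 0.0029. The CD8 chain gene Cd8b1 differed by 0.27 and the myeloid and B cell factor Spi1 by 0.23, both from 1 measured probe set. Cd8a, which encodes the other CD8 chain, was added after its values were seen. It differed by -0.028, and its other probe set gave 0.059. The acetyltransferase gene Ep300 differed by 0.16. Cbfa2t2 differed by 0.14, with its other probe set at -0.49. Zbtb7b, which encodes the CD4 lineage factor ThPOK and opposes Runx3, was chosen after its values were seen. Its probe sets differed by -0.13 and -0.26, the same direction as Runx3.

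E proteins, Id factors and their targets had 6 higher and 3 lower among 9 measured of 14, with a median of 0.045. Tcf4 (E2-2) differed by 0.16, with its other probe sets from -0.20 to 0.0081. The B cell and stem cell factor Lyl1 differed by 0.13 and Egr3, induced by T cell receptor signals, by 0.066. Cxcr5 is on this list too. Id2, the paralog of Id3, was chosen after its values were seen; its brightest probe set gave 0.045 and the others -0.11 and -0.026.

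**Figure D4:**
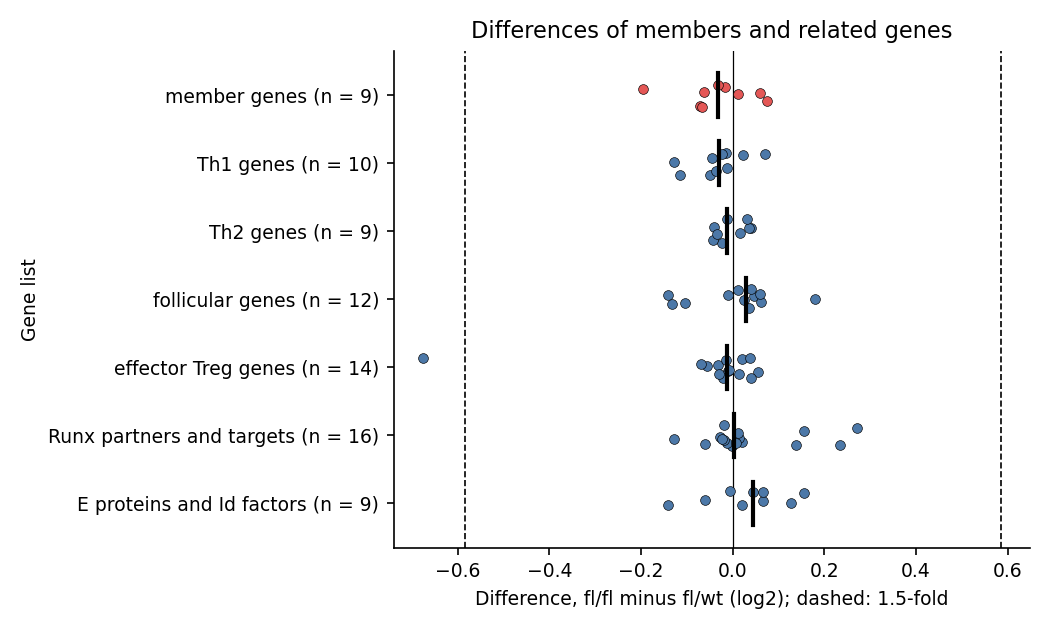
Difference between the arrays (fl/fl minus fl/wt, log2) for each measured gene of the set (red) and of 6 related lists (blue), with the median of each list as a bar and dashed lines at 1.5-fold. List medians lie between -0.032 and 0.045, and Gzmb at -0.68 is the only point outside the lines.

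Markers of other cells that express these factors were measured too. Of 7 CD8 T and NK markers with a probe set, 4 were measured, and their summed signal was log2 11.21 in both arrays. Nkg7 (10.65 in fl/wt, difference -0.062) and Cd8b1 (8.54, 0.27) were the brightest. Of the 4 measured, 1 was higher and 3 were lower in fl/fl. Cd8a, which encodes the other CD8 chain, and Klrd1 were added after their values were seen. Cd8a (8.29 in fl/wt) differed by -0.028, with its other probe set at 0.059, and Klrd1 differed by -0.010. Ncr1, Klrk1 and Klre1 were under log2 5. Eomes, Tbx21 and Runx3 are known in these cells.

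B cells and plasma cells express Bcl6 or Prdm1. Of 6 B cell markers 5 were measured, 1 higher and 4 lower, and their summed signal went from 11.08 (fl/wt) to 10.99 (fl/fl). Among them Cd79b (10.34 in fl/wt) and Cd22 (8.81) were the brightest, and the largest differences were -0.34 for Ms4a1, whose other probe set was at 0.28, and -0.17 for Blk. Pax5 was under log2 5 in both arrays. The B cell sum, most of it Cd79b (difference -0.079), and Bcl6 were both lower in fl/fl, but Cd79a was higher (0.16). The part of B cells in the Bcl6 value was not tested. Of 5 plasma cell markers 3 were measured, with a sum of 13.51 and 13.53, led by Xbp1 (13.36) and Jchain (10.03, difference 0.047). Most of that sum is Xbp1, so it mainly reads 1 gene. Mzb1, at 6.75 in fl/wt, differed by 0.025, and Sdc1 and Tnfrsf17 were under log2 5.

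Of 7 myeloid markers 6 were measured, and these were bright, led by Csf1r at 13.99 in fl/wt and C1qa at 13.83. The largest differences were -0.071 for Lyz2 and -0.053 for Cd68, and Itgam was under log2 5. Their summed signal differed little between the arrays, at 15.585 and 15.578. The part of CD8, NK, plasma and myeloid cells in the values above was not tested.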

How the data were processed

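The authors deposited log2 values per probe set for 2 arrays, made with GCRMA per the submitters' processing notes, without a stated version or settings. The log2 scale was read from the values (0.53 to 16.9, medians 3.47 and 3.50). By the platform annotation 34958 probe sets had 1 symbol, 932 several and 9160 that are not controls none, and only those with 1 were used. The 9 member genes with probe sets matched RefSeq (GRCm38.p6) by Entrez identifier. Genes were represented by the probe set with the highest mean, kept at log2 5 or above in at least 1 array, and values under 5 were set to 5. Named were all members, list genes past 1.5-fold or else the 4 largest differences per list, and the 2 brightest and 2 largest differences per marker list; others are marked as chosen later or given as background. The members and lists were chosen with earlier results of these data known. The code of the calls was checked on simulated data in which 200 genes were moved 2-fold, with the same scatter at every level. That check does not bear on differences as small as those of the members. No count, depth or replicate exists, and the number of arrays limits precision. Python 3.11.15, pandas 2.3.3 and statsmodels 0.14.6 were used. Alternatives were other floors, 32 added on the linear scale, other scalings, other probe set choices and other thresholds.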

Additional observations from a re-analysis of the deposited data

How the results depend on the processing

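No paired analysis was possible because each genotype had 1 array, and no replicate could be left out. Over 9 alternatives the median difference of the member genes (-0.032) ran from -0.063 to -0.027, and of 94 values of single members 93 moved by less than 0.14, the pooled SD between probe sets of 1 gene. The exception was Runx1, at -0.22 when the median level over its 6 probe sets was taken in each array before the difference. That median lies midway between a measured probe set and one under log2 5. Many of the 94 values could not move. The measured member probe sets all lie above every floor tried, and a gene with a single probe set has no other to choose. The size of 0.14 also exceeds every measured member difference but that of Runx3, so a change of sign can count as small. The count of 93 therefore says little about stability. The Runx3 difference ran from -0.23 to -0.19 per probe set and was -0.092 as the difference of median levels, which average its measured probe set with the one under log2 5. Cbfb turned to -0.020 with median centring, which moved the median of all genes to -0.036. List medians that changed sign under at least 1 alternative were those of the Th2, follicular, Runx and E protein lists. No member passed 1.5-fold or 2-fold under any alternative, and with 0.1 as the threshold 0 were higher and 1 lower. Counts of all genes past 1.5-fold (24 higher, 39 lower) were 44 higher with a floor of log2 4, 14 lower with a floor of 6, 76 and 95 with no filter or floor, 13 and 10 with 32 added, 3 and 2 at 2-fold, and 1231 and 1387 at 0.1.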
